A study of Homo sapiens with 2 samples.

Results

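SPI1 and 5 genes of the C/EBP family, CEBPA, CEBPB, CEBPD, CEBPE and CEBPG, were examined in the accessible chromatin of 2 human cell lines. All peaks of either list that overlapped the GRCh38 body of one of these 6 genes, or the 50 kb on either side of it, were taken. This gave 31 of the 59631 peaks of the J76 list and 33 of the 85597 peaks of the 293T list. The peaks came from ATAC-seq, in which the Tn5 transposase cuts open chromatin and inserts sequencing adapters, here with an enzyme purified by the submitters. J76 is labelled as an acute T-lymphoblastic leukemia line, and it is a Jurkat subline without T cell receptor chains. 293T, which the sample labels call T293, is labelled as a human embryonic kidney line, and it is known to carry the SV40 large T antigen. Neither line carried a treatment in the labels. Each line had 1 library, so no value has a replicate error and no test between the lines was possible.

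SPI1 encodes PU.1, an ETS family factor that drives macrophage, neutrophil and B cell development and is shut down as thymocytes commit to the T lineage. The C/EBP proteins are basic leucine zipper factors that bind DNA as dimers. C/EBP alpha starts granulocyte development and C/EBP epsilon acts in its last steps, and the family also works in liver and fat cells. Neither J76 nor 293T is a myeloid line, so these loci are seen here in cells outside the lineage they are best known for. As a check of the labels, 8 of 10 T cell markers had a gene-end peak (within 1 kb of either end of the gene) that only J76 showed, and 0 had one that only 293T showed. Of 10 kidney and 293T markers, 1 showed such a peak only in J76 and 7 only in 293T. Over all protein-coding genes the shares were 3.94% only in J76 and 9.09% only in 293T. By peaks within 1 kb of a listed start, 5 of 6 T cell markers were marked only in J76 and 0 only in 293T. Of 7 kidney and 293T markers with a listed start, 0 were marked only in J76, 3 only in 293T and 3 in both lines. The last 3 include CAV1, 293T only by gene ends, and PAX2, J76 only by gene ends.

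The 250 bases before the transcription start are shown for the 4 members present in the RefSeq promoter table (GRCh38.p14), because 3 of them lay under peaks and the other did not. SPI1 and CEBPD are not in that table. CEBPA is at chr19:33302535-33302784 (minus strand), CEBPB at chr20:50190333-50190582 (plus strand), CEBPE at chr14:23119256-23119505 (minus strand) and CEBPG at chr19:33373459-33373708 (plus strand). Capitals mark the GC box GGGCGG, the TATA box letters TATAAA and the NF-Y letters CCAAT, on either strand, and in CEBPE also GGAA, the core of ETS sites, and GAGGAA.
CEBPA: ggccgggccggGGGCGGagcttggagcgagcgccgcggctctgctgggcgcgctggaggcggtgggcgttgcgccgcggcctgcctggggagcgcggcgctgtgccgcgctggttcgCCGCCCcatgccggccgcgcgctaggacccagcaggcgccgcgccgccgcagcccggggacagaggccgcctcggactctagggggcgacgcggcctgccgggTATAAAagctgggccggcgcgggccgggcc
CEBPB: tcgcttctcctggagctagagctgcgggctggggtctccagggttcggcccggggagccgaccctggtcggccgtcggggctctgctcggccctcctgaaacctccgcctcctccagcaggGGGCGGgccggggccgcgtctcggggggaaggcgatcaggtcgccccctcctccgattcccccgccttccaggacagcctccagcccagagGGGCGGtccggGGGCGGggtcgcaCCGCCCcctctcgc
CEBPE: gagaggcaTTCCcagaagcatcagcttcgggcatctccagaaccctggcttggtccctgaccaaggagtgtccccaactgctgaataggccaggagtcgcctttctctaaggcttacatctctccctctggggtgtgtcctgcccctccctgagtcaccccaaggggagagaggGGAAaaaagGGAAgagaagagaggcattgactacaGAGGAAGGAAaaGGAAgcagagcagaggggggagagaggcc
CEBPG: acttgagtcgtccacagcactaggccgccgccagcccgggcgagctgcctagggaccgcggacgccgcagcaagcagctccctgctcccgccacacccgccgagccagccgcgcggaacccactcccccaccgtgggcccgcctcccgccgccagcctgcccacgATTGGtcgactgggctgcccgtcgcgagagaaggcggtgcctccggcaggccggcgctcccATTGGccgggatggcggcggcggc

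The CEBPA, CEBPB and CEBPG sequences were rich in G and C, at 81.2%, 75.6% and 76%, and held 41, 25 and 32 CpG dinucleotides. CEBPE had 57.2% G and C, near the median of 58% over all promoters, and 2 CpGs, against a median of 16 over 22006 promoters of protein-coding genes. GGGCGG occurred 2 times in CEBPA and 4 times in CEBPB, and 42.5% of 34943 promoters of this length held it. CCAAT occurred 2 times in CEBPG, on the reverse strand, and was held by 32.0% of promoters. TATAAA occurred in CEBPA alone of the 4 (10.8% of promoters). GGAA occurred 6 times in CEBPE, 3 times in CEBPB and 1 time in CEBPG, and was held by 92.7% of promoters. The longer ETS letters GAGGAA, which contain GGAA, occurred 1 time in CEBPE (23.6% of promoters), and the C/EBP letters TTGCNNAA in none of the 4 (9.06% of promoters). These are matches of letters, on both strands, and not measured binding sites.

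CEBPA, CEBPB, CEBPD and CEBPG had a peak within 1 kb of their transcription start in both lines, CEBPE in J76 only, and SPI1 in neither. Of 15815 protein-coding genes with a start in the tables, 63.5% showed a start peak in both lines, 3.34% only in J76, 8.27% only in 293T, and 24.9% showed none. The count of 4 members of 6 with a start peak in both lines was therefore near the share over all genes. By gene-end peaks, which do not tell a start from an end, 5 members were marked in both lines and CEBPE only in J76. Among all 19974 protein-coding genes, 60.7% were marked in both lines, 3.94% only in J76, 9.09% only in 293T, and 26.3% were not marked. No line-only peak of either list lay in the body of a member or within 1 kb of its start.

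**Figure D1:**
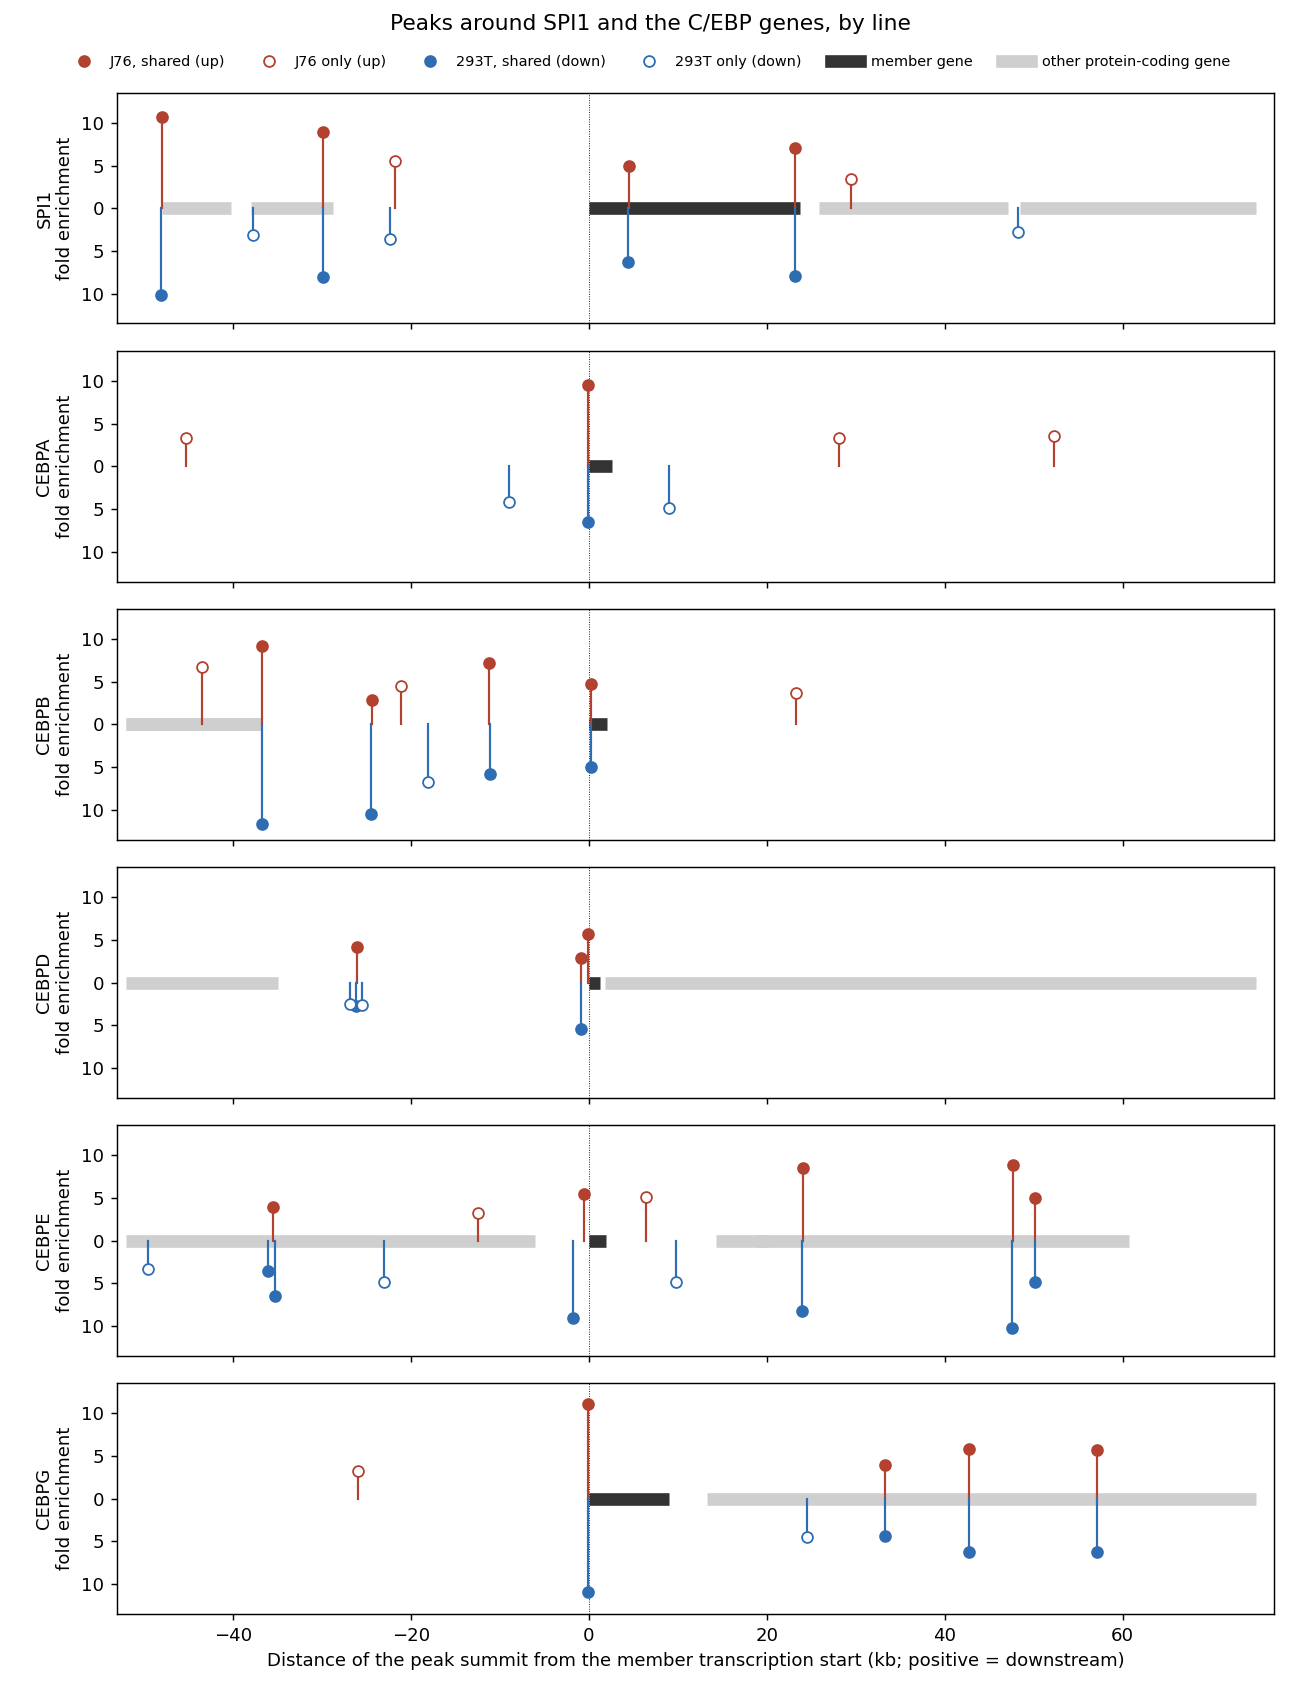
Peak summits by distance from the transcription start of each gene (kb, positive downstream) against the authors' fold enrichment, with J76 upward and 293T downward from 0. Filled points are shared peaks and open points line-only peaks; SPI1 has none at its start, and CEBPA, CEBPB, CEBPD and CEBPG have a pair of opposed peaks there.

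SPI1 (chromosome 11, 47354860 to 47378547) had peaks inside the gene but none at its start, in either line. SPI1 is transcribed from the end with the higher coordinate. By its near edge, the closest peak to that start lay 4.32 kb downstream in J76 and 4.31 kb downstream in 293T. On the upstream side the nearest peak was 21.6 kb away in J76 (47400124 to 47400455, fold 5.54) and 22.2 kb away in 293T (47400777 to 47401081, fold 3.58). These upstream peaks were close neighbours that did not overlap, and so counted as 1 J76-only and 1 293T-only peak. A missing peak does not show that the start was closed, because the depth of the libraries is unknown.

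The peak that gave SPI1 its gene-end state lay at the opposite end of the gene, where transcription ends. It ran from 47354954 to 47355900 in J76 (fold 7.11, −log10 q 42.2) and from 47354865 to 47355902 in 293T (fold 7.89, −log10 q 44.9). The summits were 15 bp apart. This peak stood at percentile 75.9 of the J76 folds and 86.3 of the 293T folds, and was 2.25 kb in J76 and 2.16 kb in 293T from MYBPC3, the nearest other gene end. A peak at the end in both lines with no start peak in either was found at 216 of 15815 genes (1.37%). That class was taken from the pattern of SPI1 itself, so its share is a description only.

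By its summit, as for all distances that follow except gaps to gene ends, a further shared peak lay in the SPI1 body 4.5 kb downstream of the start in J76 (47373967 to 47374225, fold 4.96) and 4.4 kb in 293T (47373929 to 47374240, fold 6.35). The other shared peaks of the window were at the ends of neighbours. At SLC39A13, a zinc transporter gene, the peak had a fold of 8.90 in J76 and 8.11 in 293T. At PSMC3, a proteasome subunit gene, it had a fold of 10.7 in J76 and 10.2 in 293T. The highest folds near SPI1 were thus at the ends of its neighbours. The remaining line-only peaks had low folds: 3.46 in J76, in MYBPC3, and 3.16 and 2.75 in 293T, at SLC39A13 and at the facing ends of MADD and MYBPC3.

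SPIB and SPIC, the closest relatives of SPI1, also lacked a start peak in both lines. At SPIB, a factor of B cells and plasmacytoid dendritic cells, the nearest peak to the listed start was 3.87 kb away in J76 and 3.82 kb away in 293T. SPIB had a peak 140 bp from its end in J76 (fold 7.86) and 143 bp in 293T (fold 9.92), but the start or end of MYBPC2 lay 517 bp and 432 bp from these peaks, so they are not assigned to SPIB alone. At SPIC, a factor of red pulp macrophages, the nearest peak to the start was 2496 bp away in J76 and 14939 bp away in 293T. These relatives were singled out after their values were seen.

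CEBPA (chromosome 19, 33299934 to 33302534), the factor that commits progenitors to the granulocyte path, had a peak over its start in both lines. In J76 it ran from 33302183 to 33302898, with a fold of 9.50 and a −log10 q of 53.3. In 293T it ran from 33301899 to 33303325, with a fold of 6.49 and a −log10 q of 55.6. The summits were 11 bp apart, 93 bp upstream of the start in J76 and 104 bp upstream in 293T, and the 250 bases shown lay wholly under both peaks. The peak was 716 bp wide in J76 and 1427 bp wide in 293T. CEBPA-DT, a noncoding RNA gene, begins within 1 kb of both peaks, so the signal is not assigned to CEBPA alone.

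The start peak was the only shared peak in the CEBPA window, and no other protein-coding gene lies there. The J76-only peaks were 45.3 kb upstream (fold 3.29) and 28.1 kb and 52.2 kb downstream of the start (folds 3.35 and 3.53). The 293T-only peaks were nearer, 9.0 kb upstream (33311365 to 33311641, fold 4.17) and 9.1 kb downstream (33292814 to 33294499, fold 4.89, 1686 bp wide). The J76-only peaks were weak, between percentiles 14.3 and 22.0 of the J76 folds. Keeping only peaks with a −log10 q of 5 or more turned the order of the counts, with J76-only minus 293T-only peaks at -1 in place of 1.

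CEBPG (chromosome 19, 33373709 to 33382686) follows CEBPA on the same chromosome, and 1 J76 peak lay in the windows of both genes. C/EBP gamma lacks a strong activation domain of its own and acts as a dimer partner. Its start peak had the highest fold of all member start peaks in both lists. It ran from 33373210 to 33374372 in J76 (fold 11.1, −log10 q 82.4) and from 33373158 to 33374327 in 293T (fold 10.9, −log10 q 80.5). These folds stood at percentiles 96.8 of the J76 list and 97.4 of the 293T list, and the summits were 10 bp apart. The 3 other shared peaks all lay in PEPD, a dipeptidase gene, 33.3 to 57.2 kb downstream, and their folds were 4.00, 5.81 and 5.71 for J76, against 4.38, 6.20 and 6.26 for 293T. The J76-only peak was the weak one it shares with the CEBPA window (fold 3.29), and the 293T-only peak lay in PEPD (fold 4.50).

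CEBPB (chromosome 20, 50190583 to 50192690), an inflammatory and macrophage factor, had a broad start peak in both lines. It covered 2136 bp in J76 (50190382 to 50192517, fold 4.71, −log10 q 46.9) and 1774 bp in 293T (50190370 to 50192143, fold 4.97, −log10 q 33.4). CEBPB is 2108 bases long, so the peak spanned most of the gene in both lines, and its folds stood near the middle of each list, at percentile 48.2 in J76 and 60.0 in 293T. Of the 250 bases shown, 201 lay under the J76 peak and 213 under the 293T peak. The antisense gene CEBPB-AS1 overlaps CEBPB, and the assay does not tell strands apart.

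The distal peaks of CEBPB included the site whose ranks in the lists were farthest apart. This shared site 24.3 kb upstream had a fold of 2.82 in J76 (50166080 to 50166279, −log10 q 3.41, percentile 4.1 of the list) and of 10.5 in 293T (50165743 to 50166409, −log10 q 51.5, percentile 96.4). It lies within 1 kb of an end of the noncoding gene LINC01275. The peak was 200 bp wide in J76 and 667 bp wide in 293T. Ranks from lists of different length do not show a change, no test was possible with 1 library each, and the site was singled out after its values were seen. Another shared site 11.2 kb upstream in J76 (fold 7.14) and 11.1 kb in 293T (fold 5.84) was of similar rank in each list, at percentile 76.1 of the J76 list and 70.7 of the 293T list. The highest fold of the window was at the end of PEDS1, with 9.16 in J76 and 11.6 in 293T.

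CEBPB had 3 J76-only peaks and 1 293T-only peak. The strongest J76-only peak of all 6 windows was among them, 43.5 kb upstream inside PEDS1 (50146805 to 50147277, fold 6.73, −log10 q 30.8). The others had folds of 4.55, at 21.1 kb upstream, and 3.73, at 23.3 kb downstream. The 293T-only peak, 18.1 kb upstream at the noncoding gene LINC01273, was the strongest of its kind in the 6 windows (50171975 to 50172814, fold 6.72, −log10 q 21.0). Both lines thus had a line-only site of their own upstream of CEBPB, in the span between PEDS1 and the gene or just inside PEDS1.

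CEBPD (chromosome 8, 47736913 to 47738164), an acute phase and inflammatory factor, had start peaks in both lines that were split differently. J76 had a peak from 47737338 to 47738786 (fold 5.63, −log10 q 28.1) and a separate weak one from 47738901 to 47739122 (fold 2.83). In 293T a single peak from 47737173 to 47739191 (fold 5.46, −log10 q 32.9) covered both. The 293T summit lay 870 bp upstream of the start, at the same base as the summit of the weak J76 peak, whereas the main J76 summit lay 26 bp upstream. SPIDR, whose end is the nearest other gene end, lay 1.03 kb from the main J76 peak and 0.87 kb from the 293T peak. The only other peaks of the window were a group about 26 kb upstream, where the J76 fold was 4.15 and the 293T folds were 2.64, 2.76 and 2.57. CEBPD had 0 J76-only peaks and 2 293T-only peaks, both in that group, and both had a −log10 q under 5.

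CEBPE (chromosome 14, 23117306 to 23119255), which acts in the late maturation of neutrophils and eosinophils, was the member with a start peak in J76 only. The J76 peak ran from 23119567 to 23121142 (fold 5.45, −log10 q 28.0) and began 312 bp upstream of the start. The 293T peak ran from 23120801 to 23121148 (fold 9.09, −log10 q 29.8) and began 1.55 kb upstream. The 293T peak overlapped the J76 peak, so the site counted as shared and only the part nearest the gene was J76-only. The summits were 1223 bp apart, the most of any shared peak of the 6 windows, and with a window of 2.5 kb CEBPE had a start peak in both lines. None of the 250 bases shown lay under a peak of either line.

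Around CEBPE, 1 J76-only peak lay 6.4 kb downstream of the start (23112656 to 23113193, fold 5.13, −log10 q 23.4) and 1 293T-only peak 9.9 kb downstream (23109243 to 23109598, fold 4.86, −log10 q 8.87). The other line-only peaks were in SLC7A8, an amino acid transporter gene, with a fold of 3.24 in J76 and of 4.80 and 3.32 in 293T. The shared peaks at neighbours included a pair at ACIN1, a gene of RNA processing and apoptosis. One lay in its body (8.88 in J76 and 10.2 in 293T), and the other at its end and that of C14orf119 (8.53 in J76 and 8.26 in 293T). A weaker shared peak also lay in the ACIN1 body (4.97 in J76 and 4.83 in 293T).

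Over all genes, the share of promoters with a start peak in both lines rose with promoter CpG content. Of the 4 members with a promoter sequence, CEBPA, CEBPB and CEBPG had a start peak in both lines, and CEBPE in J76 only. Their folds did not follow the CpG counts: in J76, CEBPE with 2 CpGs had 5.45 and CEBPB with 25 had 4.71. Of 3444 promoters with 30 or more CpGs in the 250 bases, 87.8% had a peak within 1 kb of the start in both lines, and CEBPA and CEBPG are in this class. The share was 84.8% of 2615 promoters with 25 to 29 CpGs, the class of CEBPB. Of 4908 promoters with 4 or fewer CpGs, the class of CEBPE, 9.76% showed a start peak in both lines, 5.83% only in J76, 9.84% only in 293T, and 74.6% showed none. Base composition also affects how well fragments are amplified and sequenced, and its part in these shares was not tested.

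**Figure D2:**
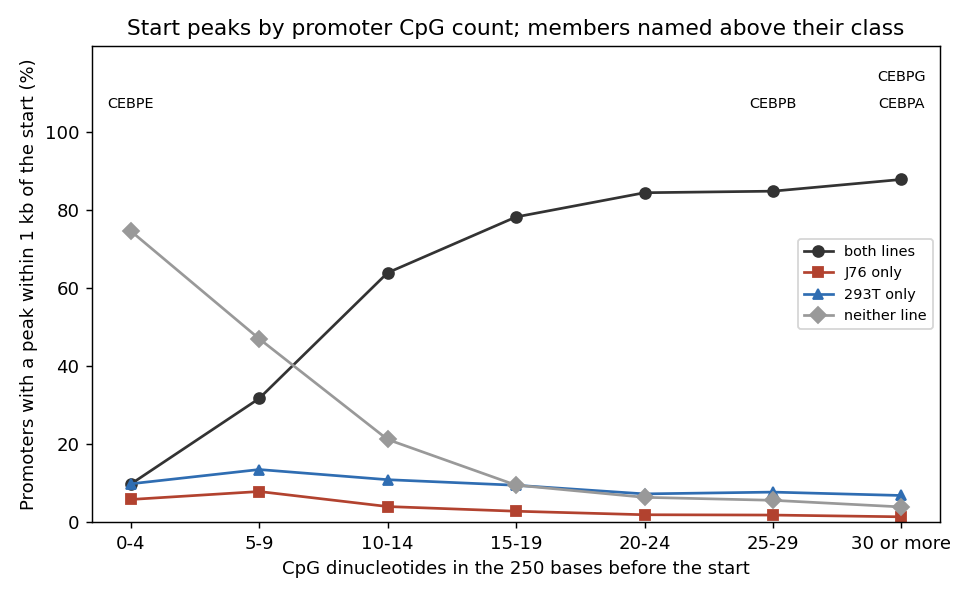
Share of protein-coding gene promoters (%) with a peak within 1 kb of the start in both lines, only in J76, only in 293T or in neither line, by the number of CpGs in the 250 bases before the start. The line for both lines climbs to 87.8% in the class that holds CEBPA and CEBPG, and stands at 9.76% in the class that holds CEBPE.

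Over the 6 windows, shared peaks outnumbered line-only peaks in both lists when any overlap counted as shared. With a reciprocal overlap of 50%, J76 had 16 shared and 15 line-only peaks and 293T had 16 and 17. Counting any overlap, in J76 21 of 31 peaks were shared (67.7%, 95% Wilson interval 50.1 to 81.4), and in 293T 21 of 33 (63.6%, 46.6 to 77.8). Over all peaks within 50 kb of any protein-coding gene, the shares were 56.7% in J76 and 39.8% in 293T. These shares are over distinct peaks, and the member windows were not matched to them in length. Averaged over all gene windows, the means were 3.327 shared and 1.965 line-only peaks in J76. In 293T they were 3.335 shared and 3.325 line-only peaks. How far the members differ from either background was not tested. Intervals cover counting error only, and neighbouring peaks are not independent. The shared peaks had a median fold of 5.71 in J76 (2.82 to 11.1) and 6.46 in 293T (2.76 to 11.6), and the line-only peaks 3.63 (3.24 to 6.73) and 3.88 (2.57 to 6.72). In the whole lists these medians were 6.23 and 6.46 for shared peaks and 3.95 and 3.76 for line-only peaks. Summits of the shared J76 peaks lay a median of 38 bp from a 293T summit, against 25 bp over all shared J76 peaks.

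Within 50 kb, the gene-by-gene balance of line-only peaks was small and mixed. There were 10 J76-only and 12 293T-only peaks in all, and no member differed by more than 2 between the lines. CEBPA and CEBPB had more J76-only than 293T-only peaks, SPI1, CEBPD and CEBPE had fewer, and CEBPG had as many. With a flank of 100 kb, J76-only minus 293T-only peaks came to -7 for CEBPD and -4 for CEBPE. Over all genes with 50 kb flanks, 29.7% had more, 53.6% fewer and 16.8% as many. At least 1 J76-only peak was found at 5 members (74.6% of all genes), CEBPD being the exception, and at least 1 293T-only peak at all 6 (83.5%). With 59631 peaks taken from each list, the windows held 11 J76-only and 8 293T-only peaks.

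**Figure D3:**
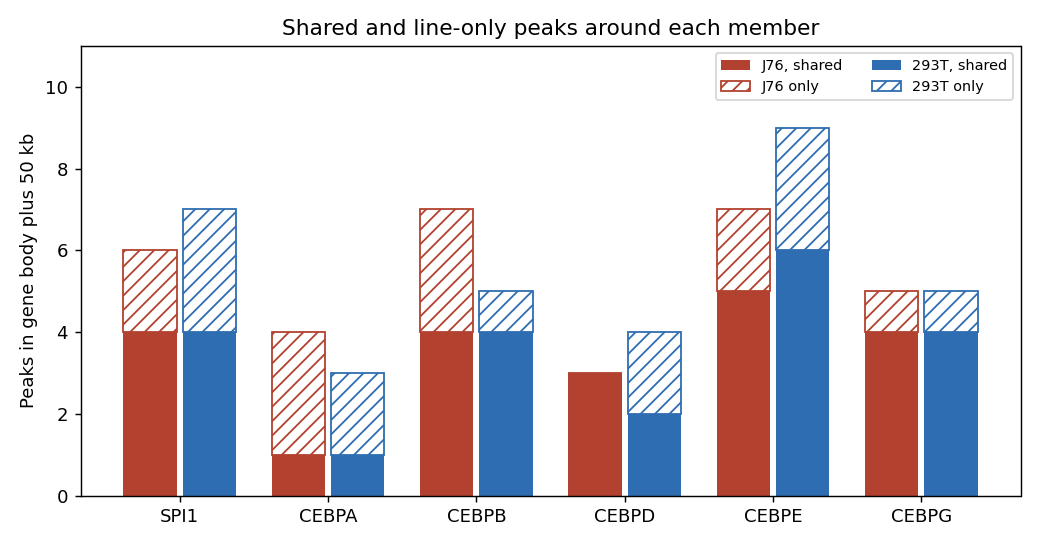
Number of peaks in the gene body plus 50 kb on either side, shared (solid) and line-only (hatched), with J76 left of 293T for each gene. The counts run from 3 to 7 in J76 and from 3 to 9 in 293T, and CEBPD has no J76-only peak.

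Per 100 kb of window, peak density was within the bulk of all genes for most members. CEBPE was the densest, with 6.87 peaks in J76 (percentile 87.2 of all protein-coding genes) and 8.83 in 293T (percentile 93.0). CEBPB followed in J76 with 6.86 (87.1) and had 4.90 in 293T (62.6). SPI1 had 4.85 in J76 and 5.66 in 293T, CEBPG 4.59 in each, CEBPA 3.90 and 2.92, and CEBPD 2.96 and 3.95. The medians over all genes were 3.20 in J76 and 3.97 in 293T. CEBPA had fewer 293T peaks per 100 kb than that median (percentile 33.4), and CEBPD was just below it in both lines (46.8 and 49.6).

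**Figure D4:**
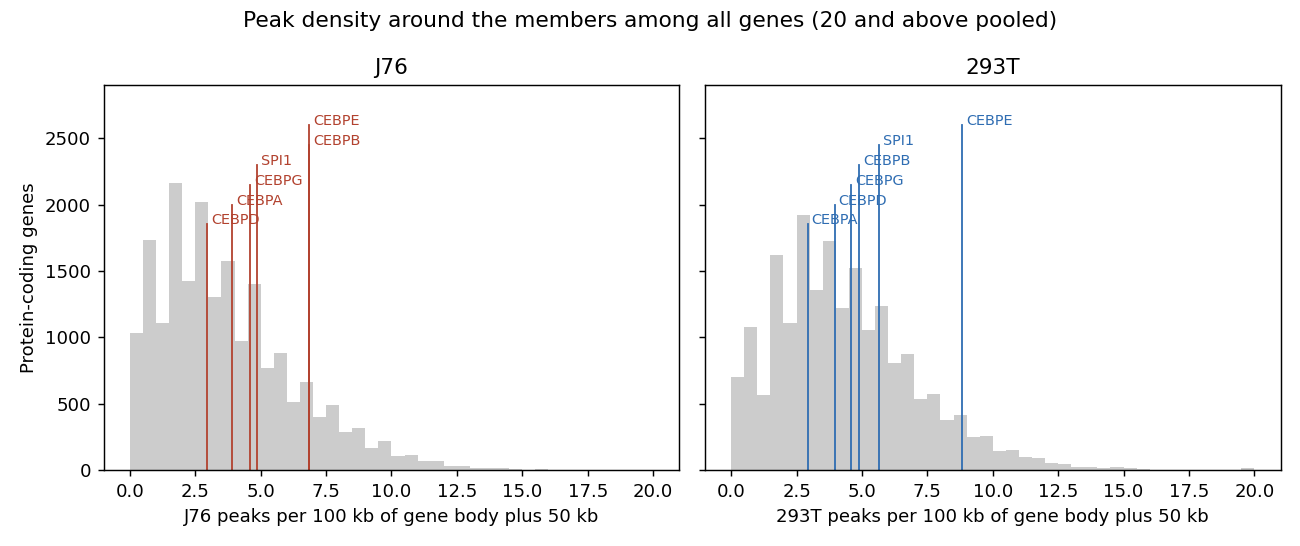
Peaks per 100 kb of gene body plus 50 kb on either side for all protein-coding genes (grey, number of genes), in J76 on the left and 293T on the right. Lines mark the 6 genes, of which CEBPE is farthest right in both panels, at 6.87 and 8.83.

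Likeness to other genes was measured over 5 values of these 2 lists, the highest gene-end fold in each line and the numbers of J76-only, 293T-only and shared J76 peaks, each as log2(1 + value). The nearest genes to SPI1 were MAPK3 (Euclidean distance 0.07) and C3orf38 (0.14). CEBPA was nearest to TMPRSS11E (0.08) and ETS2 (0.18), and CEBPB to ZFP91 (0.10) and EIF3C (0.16). CEBPD was nearest to FZD10 (0.14) and TMEM243 (0.24), CEBPE to NLGN3 (0.10) and MIB2 (0.27), and CEBPG to PARS2 (0.04) and HERC1 (0.05). Every member had a gene of unrelated name within a distance of 0.14.

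Of 18 genes that regulate, accompany or oppose these factors, 11 were marked by gene-end peaks in both lines, 3 only in J76, 1 only in 293T, and 3 were not marked. The shares over all genes were 60.7%, 3.94%, 9.09% and 26.3%, so the count in both lines was near the background. The J76-only genes were the haematopoietic factors GATA2 (fold 4.59), RUNX1 (3.87) and TAL1 (3.48). The gene in 293T only was IRF8, a partner of PU.1 in macrophages (8.75). At listed starts, which can lie inside the gene, IRF8 had a peak in J76 only (fold 4.98), and GATA2 and RUNX1 had peaks in both lines. The 293T peak of IRF8 lay within 1 kb of the upstream end of its RefSeq body, which is not among the listed starts. A start in 293T is therefore not excluded. TAL1 was thus the gene of these with a peak in J76 only by either readout. FLT3, a receptor kinase of progenitors, was marked in both, with a fold of 9.77 for J76 and 9.93 for 293T. So were SPIB, described above, and TRIB2, a pseudokinase that leads to loss of C/EBP alpha (8.84 in J76 and 4.65 in 293T). SPIC, IRF4 and GATA1 had none in either line. Around these 18 genes the median number of J76-only peaks was 2.0 and of 293T-only peaks 2.5, against 1 and 2 over all genes.

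Of 23 genes of myeloid cells, among them known targets of PU.1 and C/EBP factors, 13 lacked a gene-end peak in both lines, 3 were marked only in J76, 5 only in 293T, and 2 in both. Over all genes 26.3% lacked one, 3.94% were marked only in J76, 9.09% only in 293T and 60.7% in both. The 13 include the granule protein genes MPO, ELANE, PRTN3, AZU1, LTF and CAMP, the receptor gene CD14 and the oxidase gene CYBB. Those in J76 only were CTSG, a granule protease (fold 5.19), ITGB2, a leukocyte integrin chain (4.04), and CD33 (3.07). CTSG was marked at its start, CD33 at the upstream end of its RefSeq body, which is not a listed start, and ITGB2 has no listed start. The 4 with the highest folds in 293T only were S100A8 (5.01), ITGAM (3.96), CSF1R, the macrophage growth factor receptor (3.13), and CSF3R, the granulocyte one (3.08). CSF1R was marked at its start, and ITGAM and CSF3R at their transcription end. S100A8 was marked at the upstream end of its RefSeq body, which is not a listed start. TYROBP was marked in both lines at its end (fold 4.72 for J76 and 4.29 for 293T). CD68 was also marked in both, but at its end in J76 (5.62) and at its start in 293T (2.75). Of the 18 targets with a listed start, 1 showed a start peak only in J76 (CTSG), 2 only in 293T (CSF1R and CD68), 0 in both lines, and 15 showed none. Over all genes 24.9% showed none. The CpG counts of the target promoters are not given here, and whether CpG content has a part in the count was not tested. With peaks of −log10 q 10 or more alone, 0 targets were marked only in 293T. The same genes serve as markers of myeloid cells, and 10 of the 23 were marked in at least 1 line.

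**Figure D5:**
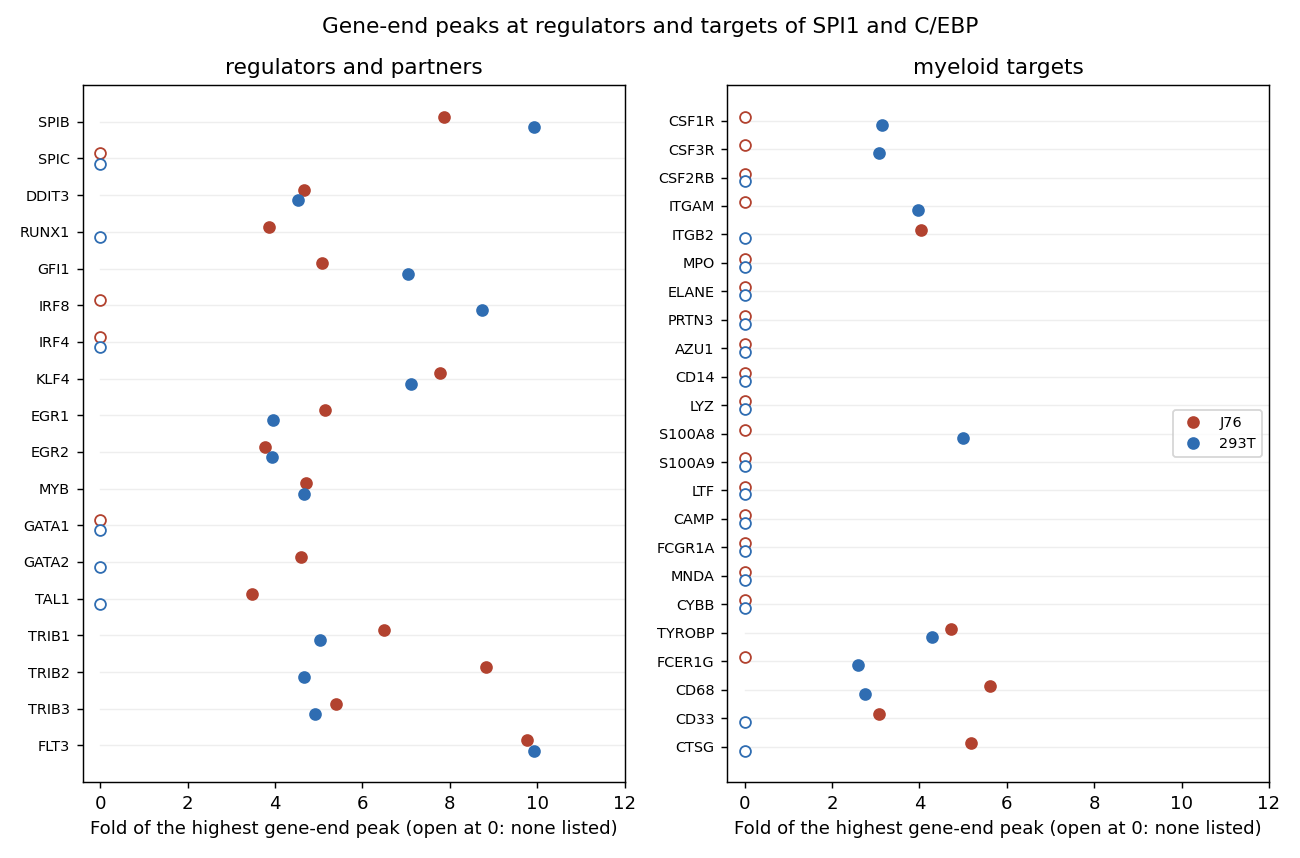
Authors' fold of the highest peak within 1 kb of a gene end for regulators and partners (left) and myeloid targets (right), in J76 and 293T. Open points at 0 mean that no such peak is listed, as for both lines at 13 of the 23 targets and 3 of the 18 regulators.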

How the data were processed

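Chromatin accessibility was measured by ATAC-seq in 2 human cell lines, with 1 library and 1 peak list per line. Per the submitters' processing notes, the tools were Bowtie2 and MACS2; for their versions, settings and duplicate handling, the sources used here give nothing. The authors deposited 1 narrowPeak list per library, with the fold over background at the summit (a linear ratio), −log10 p and −log10 q per peak, and an integer score that follows the −log10 q. These are the authors' values and were used only within their own list. No read counts were used, so depth and its precision are unknown.

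The build is not stated. The lists carry KI27 contig names, which belong to GRCh38, and positions are 1-based and given as GRCh38. Gene bodies were read from RefSeq (GRCh38.p14), for 19974 protein-coding genes outside chromosome Y. Transcription starts and promoter bases came from a RefSeq promoter table of the same build, with starts for 15815 of these genes once SPI1 and CEBPD were added; for these 2 members the start was set from the known orientation of the human gene. A gene with several listed starts had a start peak if any start had one.

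The windows, states, gene lists and naming rule are described where they are used; alternatives were a −log10 q floor of 5 or 10, 59631 peaks from each list, a reciprocal overlap of 50%, summits within 250 bp, flanks of 25 or 100 kb and gene-end windows of 500 bp or 2.5 kb. The start readout under these settings and the counts without peaks at other genes' ends were added after the data were seen. Members and lists were chosen with earlier results of these data known. Genes of the lists were named by fold: up to 4 found in 1 line only per line and up to 3 found in both; other genes named were chosen after their values were seen. A gene planned for the lists was left out of their counts and is not reported here. Overlap routines were tested on simulated data. Python 3.11.15, pandas 2.3.3, numpy 2.4.6, scipy 1.17.1 and matplotlib 3.10.9 were used.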

Additional observations from a re-analysis of the deposited data

How the results depend on the processing

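No paired analysis was possible because each line had 1 library. The start state of SPI1, CEBPA, CEBPB, CEBPD and CEBPG was the same under each alternative tried for it. A window of 2.5 kb gave 0 members marked at a gene end only in J76 and 0 with a start peak only in J76, since CEBPE then had peaks of both lines. With a −log10 q floor of 10 the windows held 20 J76 and 20 293T peaks, of which 4 were J76-only and 4 were 293T-only. Flanks of 25 kb gave 18 J76 peaks, 6 of them J76-only and 12 shared, and 19 293T peaks, 11 of them shared. Flanks of 100 kb gave 49 J76 peaks, 19 of them J76-only, and 61 293T peaks, 31 of them 293T-only and 30 shared. A narrower or wider flank holds less or more sequence by construction.

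J76-only minus 293T-only counts of single genes changed sign in 6 cases. SPI1 came to 1 at a −log10 q floor of 10. CEBPA came to -1 at a −log10 q floor of 5 and of 10, and to -2 with a flank of 25 kb. CEBPD came to 1 at a −log10 q floor of 5 and with lists of equal length. The cause was not tested. Without peaks at the ends of other protein-coding genes the windows held 27 J76 and 26 293T peaks, with 10 line-only peaks in each list. This setting also dropped the 293T start peak of CEBPD, 0.87 kb from the SPIDR end. It kept the main J76 start peak of CEBPD, 1.03 kb from that end. For the regulators, a window of 2.5 kb gave 2 in 293T only and 1 in neither. For the myeloid targets in J76 only, a window of 500 bp gave 1. For those in 293T only, a −log10 q floor of 5 gave 3, of 10 gave 0, and lists cut to equal length gave 2. For those in both lines, a −log10 q floor of 10 gave 1, a window of 500 bp gave 1 and a window of 2.5 kb gave 4. Depth is unknown, so weak peaks in 1 line only cannot be told apart from a difference in depth.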
